A study of Homo sapiens with 6 samples.

Results

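The genes described here are 46 that make ribosomes in the nucleolus, from the transcription of ribosomal DNA to the late assembly of both subunits. They were chosen by symbol, and all 46 were found among the 58395 gene identifiers of the deposited count table. All 46 were also among the 19660 genes that passed the filter on low counts, so no gene of the list was lost before testing. By the labels, the RNA came from H1 (human embryonic stem cells, a line derived from a blastocyst). It was sequenced as 6 libraries: 2 labelled wild type (WT) and 2 each from BRPF1 knockouts labelled KO 1# and KO 2#. BRPF1 is a scaffold of histone acetyltransferase complexes. What 1# and 2# mean, where the gene was edited and whether libraries of a group came from separate cultures is not in the labels, so p-values may measure only technical spread.

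A ribosome begins in the nucleolus, where RNA polymerase I transcribes a long precursor rRNA. Small nucleolar ribonucleoproteins (snoRNPs) modify this RNA, 2'-O-methylation being made by the box C/D kind and pseudouridine by the box H/ACA kind, and large assemblies of proteins fold and cut it into the parts of the small and the large subunit. Most of the proteins leave before the subunits reach the cytoplasm, and demand for them is high in cells that grow and divide fast, which pluripotent stem cells do.

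Library totals ran from 33421785 to 38098779 counts. BRPF1 itself was at 28.4 and 23.1 normalised CPM in WT against 32.2 and 27.9 in KO 1# and 25.4 and 23.6 in KO 2#, where normalised CPM are counts scaled by library size (CPM) and by TMM. Its log2 fold change was 0.08 (SE 0.10, edgeR adjusted p = 0.508), and -0.66 on scaling by library totals, so the transcript level does not check the knockout labels, and every direction below is a direction between libraries as labelled. The libraries labelled knockout held little of the marker RNAs of the labelled cell line. The 10 embryonic stem cell markers summed to 7427 to 7540 normalised CPM in WT and 21.2 to 40.8 in the knockout libraries, all 10 called lower, with POU5F1 at 91263 and 75872 counts in WT against 1 to 22 counts and NANOG at 5625 and 5758 counts against 0 or 1. SOX2 had a log2 fold change of -5.74. The 10 fibroblast and feeder cell markers rose from a sum of 830 to 861 to one of 189304 to 208156, and all 10 were called higher. Their log2 fold changes ran from 0.16 to 16.95. LUM and FAP had 0 counts in both WT libraries, and COL1A1 had a log2 fold change of 10.17. Division genes were lower too: 14 of 15 S phase genes, whose sum went from 2022 to 2078 in WT to 307 to 369, and 15 of 15 genes of G2 and mitosis, whose sum went from 2383 to 2452 to 204 to 299, with MKI67, the proliferation antigen, at -3.17. Other lists had 5 markers each, of which 2 to 5 passed the filter. The trophoblast list had 4 called higher, the neuroectoderm list 2 higher and 1 lower, and the endoderm list 1 higher. The endothelium and blood list had 2 higher and 1 lower. Over all genes tested, 41.4% were called lower and 35.8% higher. The 2 endoderm genes tested were near the floor, with sums of 0.31 to 0.61 normalised CPM in WT and 0.65 to 1.45 in the knockout libraries. In bulk RNA, fewer cells of a kind and less RNA per cell cannot be told apart, and the part of these marker differences in the results below was not tested.

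Of the 46 ribosome biogenesis genes, 32 were lower and 4 higher in the knockouts than in WT (KO 1# and KO 2# averaged), and 10 were not called (edgeR quasi-likelihood test, Benjamini-Hochberg adjustment over all 19660 genes, called at an adjusted p below 0.05). Of all genes tested, 41.4% were called lower and 35.8% higher in the same comparison. The median log2 fold change of the 46 was -0.70, against -0.13 over all genes tested, and the range ran from -2.21 (FBL) to 1.52 (NOP2). All 4 knockout libraries were below both WT libraries for 33 of the 46 genes and above both for 4, whereas 43.3% of all tested genes lay below and 37.2% above in this way. Of the 33, NOP14, a processome scaffold protein, did not pass the test (log2 fold change -0.18, adjusted p = 0.0772). Set against the median of all genes tested, 37 of the 46 lay lower. Without 1 library that number was 34 to 37, and with no filter on low counts, where the median of all genes was -0.73, it was 22. Scaling by library totals moved the median of all genes by -0.73. It called 45 of the 46 lower and 0 higher, beside 59.9% lower and 21.9% higher over all genes. Values below are on the TMM scale.

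**Figure D1:**
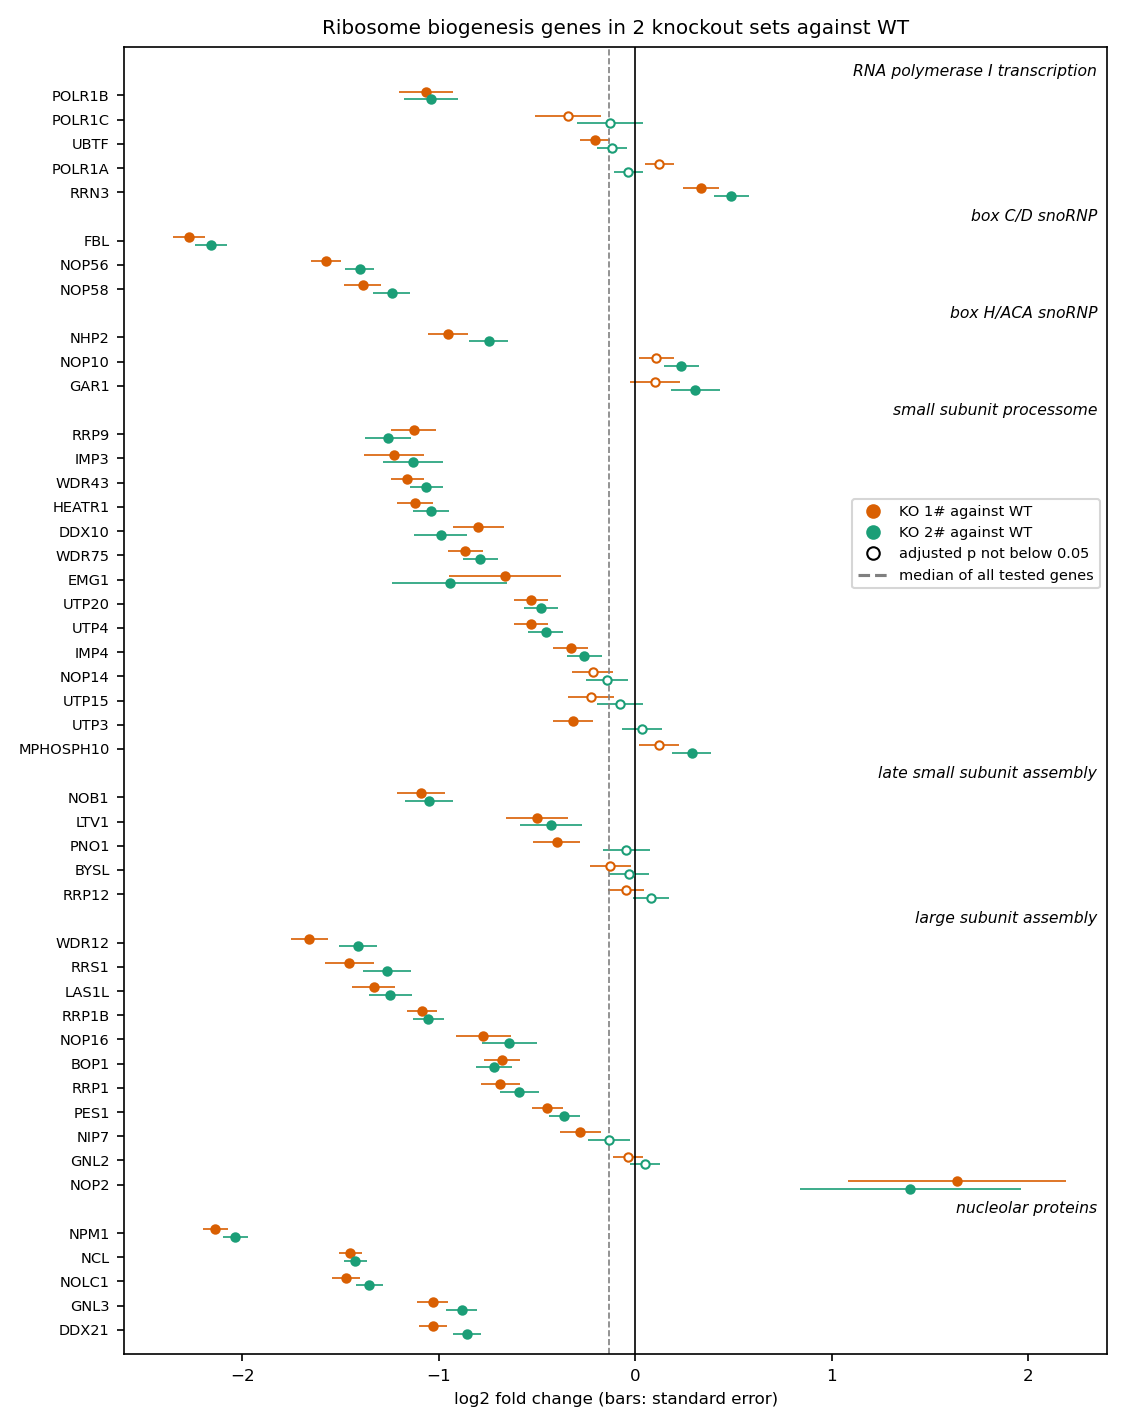
Log2 fold change of each of the 46 genes (x axis) in KO 1# (orange) and KO 2# (green) against WT, by role, n = 2 libraries per group. Bars are standard errors, open points have an adjusted p not below 0.05, and the dashed line is the median of all tested genes at -0.13; FBL and NPM1 lie farthest to the left and NOP2, which has few counts, alone at the right.

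Summed over the 46 genes, the level was 5075 and 5110 normalised CPM in WT and lay between 2209 and 2396 in the 4 knockout libraries. NPM1 and NCL make up much of that sum, and without them it was 2783 to 2840 in WT and 1583 to 1723 in the knockouts. Neither sum overlapped between the groups.

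In raw counts, the 46 genes together had 265462 and 245321 in WT and 66148 to 74879 in the knockout libraries. The distribution of fold changes sets the 46 beside all tested genes.

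**Figure D2:**
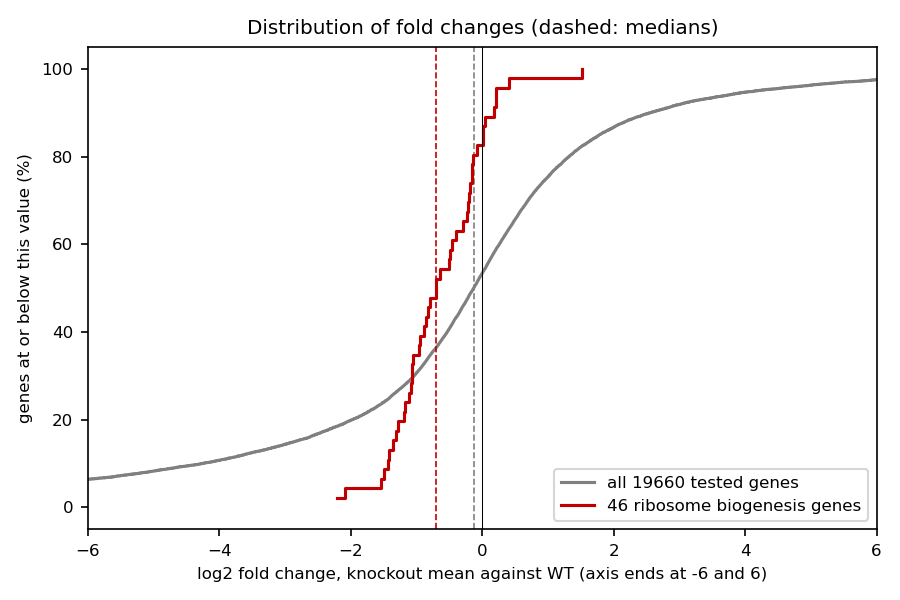
Cumulative share of genes (y axis, %) at or below a log2 fold change (x axis), knockout mean against WT, for the 46 genes (red) and all 19660 tested genes (grey), with dashed lines at the medians of -0.70 and -0.13. The red curve runs from -2.21 to 1.52.

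Many genes of ribosome production carry a MYC-type E-box, the sequence CACGTG, near their start, so the promoters of the list were searched for it. The sequence is its own reverse complement, so that a match on one strand is a match on both. RefSeq promoter windows (GRCh38.p14, 250 bases before to 50 after the start) were at hand for 39 of the 46 genes, and 14 of these (35.9%) held CACGTG. The share was 7.26% over all 35116 promoters of the same length and 9.57% over those of 12511 tested genes. All 14 had a match within 50 bases of the start, where 2.82% of all promoters and 3.79% of those of tested genes had one. Shown here, as 30 bases each on the strand of the gene with the match in capitals, are 6 genes called lower, 1 not called and 1 called higher, so that the same letters can be seen beside different fold changes.
FBL: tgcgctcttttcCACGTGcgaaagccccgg
RRP9: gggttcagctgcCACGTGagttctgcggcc
WDR43: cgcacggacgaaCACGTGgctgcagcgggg
UTP20: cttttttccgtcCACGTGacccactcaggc
UTP4: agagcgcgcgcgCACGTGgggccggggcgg
PES1: tccttggcagggCACGTGcgggaggaagtg
GNL2: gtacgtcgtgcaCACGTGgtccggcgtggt
NOP10: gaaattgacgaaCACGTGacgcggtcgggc
These windows lie at chr19:39846356-39846385 (FBL, minus strand), chr3:51941892-51941921 (RRP9, minus), chr2:28894658-28894687 (WDR43, plus), chr12:101280083-101280112 (UTP20, plus), chr16:69132621-69132650 (UTP4, plus), chr22:30591880-30591909 (PES1, minus), chr1:37595917-37595946 (GNL2, minus) and chr15:34343130-34343159 (NOP10, minus).

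The 14 genes with a match near the start had a median log2 fold change of -0.35, with 8 called lower and 2 higher. The 25 genes with a promoter but no match had a median of -0.85, with 19 lower and 1 higher. The 7 genes without a promoter window at hand had a median of -1.07, with 5 lower and 1 higher. Over all genes tested, 41.4% were called lower and 35.8% higher, with a median of -0.13. Genes with the match thus included FBL, the most reduced of the list, as well as GNL2 at 0.01 and NOP10 at 0.17. A match of letters is a description and not a site of binding.

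**Figure D3:**
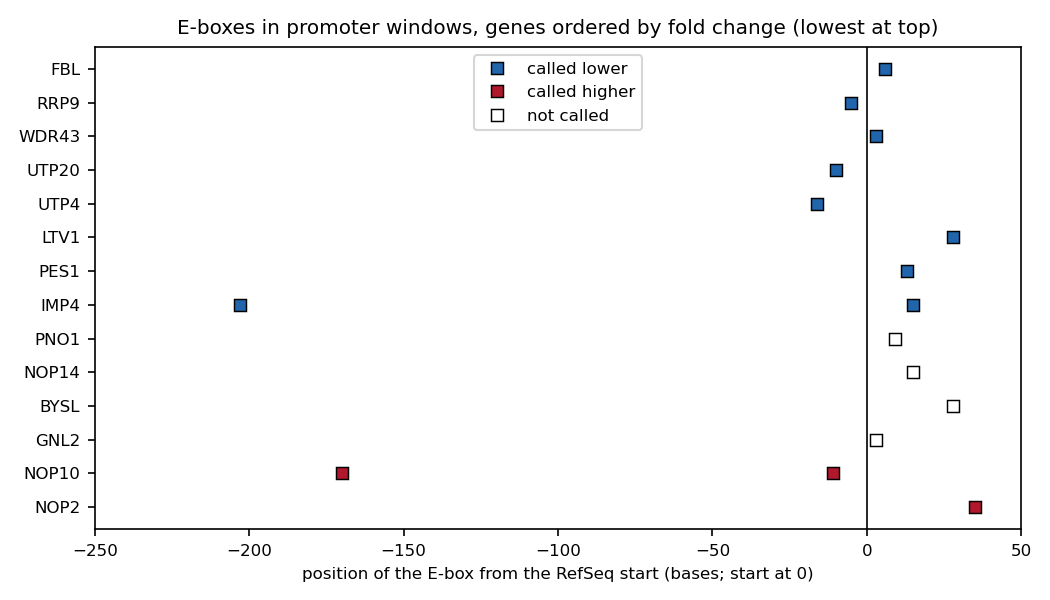
Position of each CACGTG (x axis, bases from the RefSeq start, which is at 0) in the 14 promoters that hold it, with genes ordered from the lowest fold change at the top. Fill gives the call; matches sit within 50 bases of the start in all 14, and IMP4 and NOP10 hold a further match upstream.

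MYC family transcripts, whose proteins bind this sequence with MAX, differed between the same libraries. MYC was at 83.8 and 81.7 normalised CPM in WT against 20.5 and 18.2 in KO 1# and 22.1 and 22.4 in KO 2# (log2 fold change -1.996, adjusted p = 4.74e-14). MYCN went from 3934 and 3509 counts in WT to 4 and 28 in KO 1# and 0 and 5 in KO 2#, and MYCL from 28.3 and 28.7 normalised CPM to between 0.22 and 0.24. Of 10 MYC family and partner genes, 5 were called lower and 5 higher, beside 41.4% lower and 35.8% higher over all genes tested. Among those called higher were MAX (1.22) and MXD4 (2.60), which pairs with MAX in place of MYC. The 5 called lower held partner genes as well as MYC, MYCN and MYCL, so the partners did not all rise. Whether these differences have a part in those of the ribosome biogenesis genes was not tested.

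Among 5 genes of RNA polymerase I transcription, 2 were lower, 1 higher and 2 not called, with a median of -0.16. The share of lower genes and the median were near those of all genes tested (41.4% and -0.13). POLR1A, the largest subunit (chr2:86020216-86106155 in the GRCh38 annotation), was at 93.9 and 86.8 normalised CPM in WT against 99.1 and 97.7 in KO 1# and 88.9 and 87.4 in KO 2#, with overlapping groups (0.04, SE 0.06, adjusted p = 0.549). POLR1B, the second largest subunit (chr2:112541915-112577150), was at 41.0 and 45.2 in WT against 17.0 and 24.2 in KO 1# and 22.2 and 19.7 in KO 2# (-1.05, SE 0.11, adjusted p = 1.37e-07). Every knockout library thus held less POLR1B than either WT library, beside POLR1A levels that overlapped WT in KO 2# and lay above it in KO 1#. POLR1C, a subunit shared with RNA polymerase III, was not called (-0.24, adjusted p = 0.142), but was lower without WT replicate 2 (-0.44, adjusted p = 0.0306). RRN3, which brings the polymerase to the promoter, was the member called higher, at 31.9 and 30.5 in WT against 38.7 and 40.1 in KO 1# and 44.7 and 43.0 in KO 2# (0.41, SE 0.08, adjusted p = 1.31e-04). The RRN3 call was lost (0.02) when totals left out the 20 most abundant genes, and its direction turned on scaling by library totals (-0.32), and 3 RRN3 pseudogenes held 21.7% of the counts of the gene and its copies together. UBTF, which bends ribosomal DNA for transcription, had a small difference (-0.16, adjusted p = 0.0320) that did not pass without WT replicate 1 (-0.09) or on leaving out either KO 2# library.

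All 3 box C/D snoRNP proteins were lower, beside 41.4% of all genes tested. FBL (chr19:39834458-39846414), fibrillarin, the methyltransferase of this particle, was at 233 and 219 normalised CPM in WT against 48.5 and 45.0 in KO 1# and 53.5 and 47.7 in KO 2# (-2.21, SE 0.07, adjusted p = 1.25e-15). It was the largest fall of the 46 genes, and WT lay more than 4-fold above each knockout library. NOP56 (chr20:2652145-2658393), a core protein of the same particle, went from 185 and 180 to 57.9 and 64.5 in KO 1# and 68.0 and 70.0 in KO 2# (-1.49, SE 0.06, adjusted p = 2.05e-13). NOP58, its partner, went from 82.5 and 92.0 to 31.0 and 35.8 in KO 1# and 37.1 and 36.8 in KO 2# (-1.31, SE 0.08, adjusted p = 2.64e-11). Both core proteins fell by like amounts, and FBL by more.

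The 3 box H/ACA proteins split: 1 was lower, 1 higher and 1 not called, beside 41.4% lower and 35.8% higher over all genes. NHP2 (chr5:178149460-178153967), a core protein that binds the guide RNA, was at 39.5 and 39.6 normalised CPM in WT against 20.8 and 20.1 in KO 1# and 24.2 and 23.0 in KO 2# (-0.85, SE 0.08, adjusted p = 4.35e-08). NOP10, a small protein of the same core, was at 40.7 and 40.0 in WT against 44.6 and 42.4 in KO 1# and 49.3 and 45.6 in KO 2# (0.17, SE 0.08, adjusted p = 0.0499). GAR1, which helps the particle release its product, was not called (0.20, adjusted p = 0.0974), but was higher without KO 2# replicate 2 (0.27, adjusted p = 0.0493). Every knockout library thus held less NHP2 than either WT library, and more NOP10. The NOP10 call lies at the threshold: under 13 alternatives it was lost in 9, among them on leaving out either WT library, and turned in 2, and on scaling by library totals NOP10 and GAR1 were at -0.56 and -0.53. Exons of NHP2 share 27.4% of their bases with RMND5B on the other strand, which was itself lower (-2.24), and sources used here do not give the strand setting of the counting.

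Of 14 genes of the small subunit processome, the first large assembly on the precursor rRNA, 10 were lower, 1 was higher and 3 were not called (median -0.65). Of all genes tested, 41.4% were called lower and 35.8% higher (median -0.13). RRP9, which binds U3 snoRNA, was at 35.1 and 31.5 normalised CPM in WT against 15.7 and 14.7 in KO 1# and 14.2 and 13.6 in KO 2# (-1.19, SE 0.10, adjusted p = 2.61e-09). WDR43, a transcription-coupled UTP protein, went from 75.5 and 77.6 to 33.9 and 34.5 in KO 1# and 36.0 and 37.2 in KO 2# (-1.11, SE 0.07, adjusted p = 6.20e-11). HEATR1, another of these, went from 104 and 107 to 43.7 and 53.4 in KO 1# and 51.0 and 51.8 in KO 2# (-1.08), although it shares 23.2% of its exon bases with LGALS8 on the other strand, which was higher (2.11). In each of these genes the knockout libraries lay at about equal levels and far below WT. WDR75 (-0.83) and the helicase DDX10 (-0.89) were lower by less, and UTP20 (-0.51), UTP4 (-0.49) and IMP4 (-0.29) by less again. UTP15 (-0.15), UTP3 (-0.14) and NOP14 (-0.18) were not called. UTP3 was called lower in KO 1# alone (-0.32, adjusted p = 0.0102), and NOP14 under RLE (-0.23, adjusted p = 0.0290) and DESeq2 (-0.23, adjusted p = 0.0432).

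IMP3, IMP4 and MPHOSPH10 form a complex with U3 snoRNA, and they differed from each other. IMP3 was at 15.9 and 17.4 normalised CPM in WT against 6.72 and 7.49 in KO 1# and 7.35 and 7.82 in KO 2# (-1.18, SE 0.12, adjusted p = 1.09e-07). MPHOSPH10 was at 28.4 and 29.5 in WT against 30.0 and 32.8 in KO 1# and 36.9 and 33.7 in KO 2# (0.20, SE 0.09, adjusted p = 0.0409). Of 13 alternatives, the MPHOSPH10 call was lost in 7, among them on leaving out either WT library, and turned in 2 (-0.53 on scaling by library totals). IMP3 shares 59.3% of its exon bases with other genes, among them SNX33 on the other strand (31.2%), which was higher (0.58). EMG1, a methyltransferase of the small subunit rRNA, had only 178 and 179 counts in WT against 74 and 71 in KO 1# and 49 and 57 in KO 2# (-0.80, SE 0.24, adjusted p = 0.00574). The symbol belongs to 2 identifiers, and the other had 22 and 25 counts in WT and 1 to 18 in the knockout libraries. The gene shares 53.1% of its exon bases with other genes, and its call was lost without WT replicate 2 (-0.74, adjusted p = 0.0764).

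Of 5 factors of late small subunit assembly, 2 were lower, 0 higher and 3 not called (median -0.22), a share of lower genes near the 41.4% of all genes. NOB1, the nuclease that makes the final cut of the small subunit rRNA, was at 35.2 and 32.5 normalised CPM in WT against 14.4 and 17.4 in KO 1# and 16.8 and 15.9 in KO 2# (-1.07, SE 0.10, adjusted p = 2.20e-08). LTV1, which leaves the small subunit late in its assembly, was lower by less (-0.46, adjusted p = 0.00414). PNO1, which holds NOB1 at the rRNA, was at 22.0 and 21.7 in WT against 16.9 and 16.2 in KO 1# and 19.5 and 22.8 in KO 2# (-0.22, adjusted p = 0.0547), so that 1 KO 2# library reached the WT levels. Its adjusted p lay just above the threshold: PNO1 was called lower in 8 of 13 alternatives, among them RLE (adjusted p = 0.0226), DESeq2 (0.0408) and leaving out KO 1# replicate 1 (0.0450) or KO 2# replicate 2 (0.0328), and also in KO 1# alone (-0.40, adjusted p = 0.00611). BYSL (-0.08) and RRP12 (0.02) were not called. Exon bases shared with other genes came to 34.8% in LTV1 and 20.3% in NOB1. The genes shared with LTV1 lie on the same strand and had 2 and 0 counts over all libraries. The gene shared with NOB1 lies on the other strand and had 8. Elsewhere in the list the share was 20.2% in NIP7, 19.95% in NOP16, 18.2% in POLR1C and 17.1% in NOP14. There the other genes lie on the other strand, and the effect of the unknown strand setting on the counts was not tested.

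Of 11 large subunit assembly genes, 9 were lower, 1 was higher and 1 was not called (median -0.70). Over all genes tested, 41.4% were lower and 35.8% higher (median -0.13). PES1, BOP1 and WDR12 form the PeBoW complex, which is needed for the large subunit rRNA to be cut out. WDR12 (chr2:202874782-203014798) was at 58.9 and 61.8 normalised CPM in WT against 18.9 and 19.3 in KO 1# and 22.9 and 22.5 in KO 2# (-1.53, SE 0.08, adjusted p = 3.05e-12). BOP1 went from 110 and 99.98 to 70.3 and 61.0 in KO 1# and 67.9 and 59.7 in KO 2# (-0.70, SE 0.08, adjusted p = 1.64e-07). PES1 went from 82.9 and 76.3 to 59.2 and 57.7 in KO 1# and 63.3 and 60.7 in KO 2# (-0.40, SE 0.07, adjusted p = 3.13e-05). All 3 fell, WDR12 to 34.6% of its mean WT level and PES1 to 75.6%.

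RRS1, which brings the 5S particle to the large subunit, was at 31.5 and 28.7 normalised CPM in WT against 10.6 and 11.4 in KO 1# and 12.2 and 12.9 in KO 2# (-1.36, SE 0.10, adjusted p = 8.32e-10). LAS1L, part of the nuclease that removes a spacer of the precursor, went from 82.8 and 68.3 to 32.8 and 27.2 in KO 1# and 31.3 and 32.3 in KO 2# (-1.29, SE 0.09, adjusted p = 3.21e-10). RRP1B (-1.07), its paralogue RRP1 (-0.64) and NOP16 (-0.71) were lower too. GNL2, a GTPase of the large subunit, was at 78.0 and 76.9 in WT against 75.2 and 76.0 in KO 1# and 83.8 and 76.8 in KO 2# (0.01, SE 0.07, adjusted p = 0.913), so its groups overlapped. NIP7 was lower by a small amount (-0.21, adjusted p = 0.0452), and that call was lost on leaving out any library except KO 1# replicate 1. NOP2, a cytosine methyltransferase of the large subunit rRNA, was called higher (1.52, SE 0.50, adjusted p = 0.0109) from 33 and 11 counts in WT against 44 and 43 in KO 1# and 26 and 40 in KO 2#. The raw counts overlap between the groups, and the call was lost without WT replicate 2 (0.98, adjusted p = 0.168). Of the NOP2 exon bases, 54.4% are shared with a same-strand gene that had 0 counts in all libraries.

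The 5 nucleolar proteins were all lower, with a median of -1.41, beside 41.4% of all genes tested and their median of -0.13. NPM1 (chr5:171387116-171411137), nucleophosmin, a chaperone of the outer nucleolus, was at 1317 and 1436 normalised CPM in WT against 300 and 326 in KO 1# and 338 and 334 in KO 2# (-2.09, SE 0.05, adjusted p = 1.12e-16). NCL (chr2:231453531-231483641), nucleolin, which binds precursor rRNA, went from 919 and 891 to 326 and 336 in KO 1# and 335 and 338 in KO 2# (-1.44, SE 0.05, adjusted p = 5.98e-15). NOLC1, a chaperone of snoRNPs, went from 196 and 199 to 72.0 and 70.3 in KO 1# and 76.6 and 77.8 in KO 2# (-1.41, SE 0.06, adjusted p = 1.16e-13). In these 3 genes the libraries of a group lay close together and the groups far apart. GNL3, nucleostemin, a GTPase known from stem cells, went from 117 and 115 to 53.6 and 59.8 in KO 1# and 62.6 and 63.0 in KO 2# (-0.96, SE 0.07, adjusted p = 2.51e-10). DDX21, a helicase of rRNA transcription and processing, went from 234 and 246 to 111 and 124 in KO 1# and 131 and 134 in KO 2# (-0.94, SE 0.06, adjusted p = 7.64e-11). NPM1 has 45 annotated pseudogenes, which held 0.292% of the counts of the gene and its copies.

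**Figure D4:**
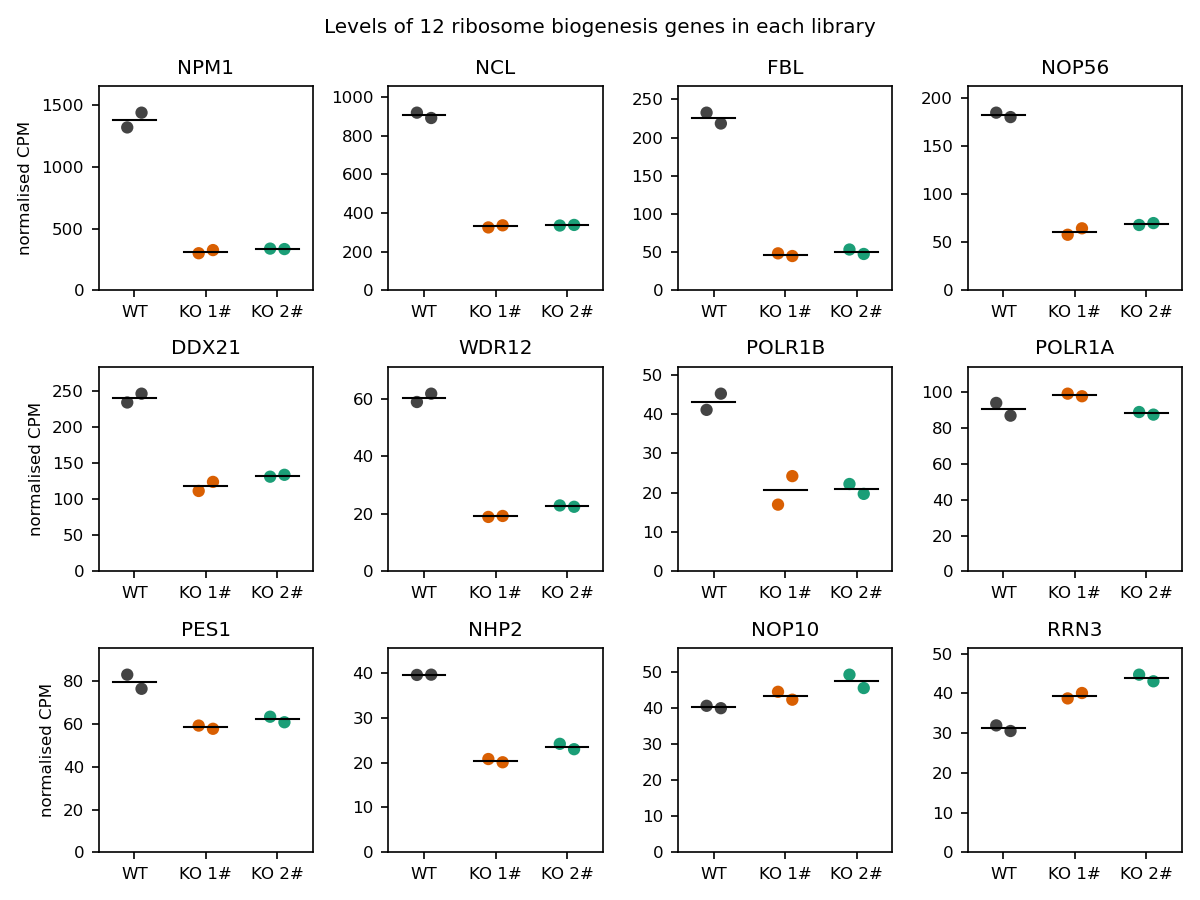
Normalised CPM (y axis, from 0) of 12 of the genes in each library of WT, KO 1# and KO 2#; points are libraries and lines are means of 2. WT lies above every knockout library for NPM1, NCL, FBL, NOP56, DDX21, WDR12, POLR1B, PES1 and NHP2, and not for POLR1A, NOP10 and RRN3.

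Levels were also set per kilobase of annotated exon, with the exons of all transcripts of a gene merged. Merged lengths, 3828 bases in NPM1 and 554 in NOP10, depend on which transcripts are annotated, and so do ranks on this scale. On that scale NPM1 was highest in WT (359.5 normalised CPM per kb) and in the knockouts (84.8). NOP10 stood at rank 4 in WT with 72.9 and at rank 2 in the knockouts with 82.1, close to NPM1. Across the 46 genes, the WT level per kilobase and the log2 fold change had a Spearman rho of -0.51. With log2 of the WT level, the Pearson r was -0.63. NOP2, which has few counts, had both the lowest WT level and the highest fold change. These values are a description only, since both measures share the WT libraries.

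Ratios between partners of a complex need no scaling between libraries, since both genes are counted in the same library. The pairs were chosen after their values were seen, and no test was run on them. An exact permutation test of 2 against 4 libraries could not go below a one-sided p of 0.0667. The log2 ratio of WDR12 to PES1 was -0.49 and -0.30 in WT against -1.64 and -1.58 in KO 1# and -1.46 and -1.43 in KO 2#. That of NHP2 to NOP10 was -0.04 and -0.02 in WT against -1.10 and -1.08 in KO 1# and -1.03 and -0.99 in KO 2#. POLR1B to POLR1A went from -1.19 and -0.94 to -2.55 and -2.01 in KO 1# and -2.001 and -2.15 in KO 2#. In these 3 pairs every knockout library lay below both WT libraries by more than the spread within a group. Of single genes tested, 43.3% had all 4 knockout libraries below both WT libraries and 37.2% had them above. No such share was computed over gene pairs. IMP3 to MPHOSPH10 differed by most (-1.38 between the means), FBL to NOP58 by -0.90 and NOP56 to NOP58 by only -0.18. Even for NOP56 to NOP58, every knockout library lay below both WT libraries. GAR1 to NOP10 (0.03) and POLR1C to POLR1A (-0.26) overlapped between the groups.

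**Figure D5:**
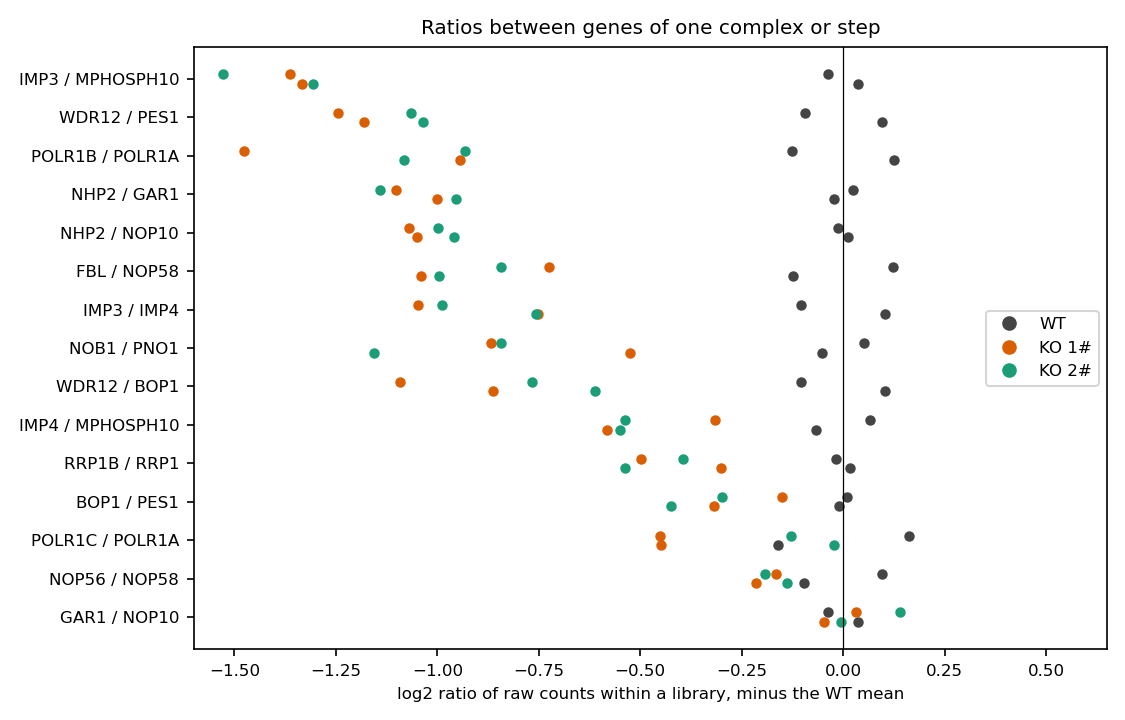
Log2 ratio of raw counts of 2 genes within a library (x axis, minus the WT mean of that pair) for WT (dark), KO 1# (orange) and KO 2# (green), 1 point per library. The knockout points of WDR12 to PES1 and NHP2 to NOP10 lie near -1, whereas those of GAR1 to NOP10 overlap WT.

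KO 1# and KO 2# were each compared with the same 2 WT libraries, so the comparisons are not independent. Against WT, 34 of the 46 genes were lower and 2 higher in KO 1#, where 38.7% of all genes were called lower and 35.0% higher. In KO 2#, 30 were lower and 5 higher, beside 39.1% and 34.6% of all genes. The median log2 fold change was -0.68 in each, against -0.11 and -0.13 over all genes. Between KO 2# and KO 1# directly, 3.86% of all genes were called in either direction, and 0 of the 46 were called by edgeR, with 6 at an unadjusted p below 0.05 and 1 called by DESeq2. That gene, UTP3, a processome protein, was at 24.7 and 28.1 normalised CPM in KO 1# and 33.5 and 33.7 in KO 2# (0.35, SE 0.10; edgeR adjusted p = 0.0752, DESeq2 adjusted p = 0.0422). Without KO 1# replicate 2 it was called by edgeR (0.46, adjusted p = 0.0246), and that fit called 2 of the 46. PNO1 differed by as much (0.35, SE 0.12, adjusted p = 0.134). In all, 40 of the 46 genes had a value above 0 in KO 2# against KO 1#, with a median of 0.10. Of all genes tested, 46.9% were above 0, and their median was 0. On scaling by library totals the number of the 46 above 0 was 35, and the median of all genes was -0.05. That number was 34 without KO 2# replicate 1, 37 without KO 1# replicate 1 and 41 without KO 2# replicate 2.

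Inside 6 of the genes, on the same strand, lie 22 annotated small nucleolar or Cajal body RNA genes, whose RNAs mostly guide the modification of rRNA and other RNAs. GNL3 holds 6 of them, NOP56 5, NOP58 4, NCL and WDR43 3 each, and POLR1C 1. All of these hosts except POLR1C were called lower, by -0.96 (GNL3) to -1.49 (NOP56), beside 32 of the 46 genes and 41.4% of all genes. The hosts are already counted in the roles above. The small RNAs themselves are not analysed here.

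To set the list beside the rest of the pathway, 116 further genes of rRNA transcription, subunit assembly and snoRNP formation were counted, of which 115 were found and tested. Of these, 75 were lower, 15 higher and 25 not called, with a median of -0.50, beside 41.4% lower, 35.8% higher and a median of -0.13 over all genes tested. All 11 other RNA polymerase I genes were lower (median -0.84), among them TCOF1, treacle, a nucleolar scaffold of the polymerase, at -2.10. For other small subunit genes the counts were 17 lower and 8 higher of 34 (-0.26), a share of lower genes near that of all genes. RIOK3, a kinase in this list, rose from 18.2 and 21.7 normalised CPM in WT to between 54.1 and 62.5 (1.54). Among other large subunit genes, 29 of 44 were lower and 4 higher (-0.47). MDN1, the AAA ATPase that strips factors from the large subunit, fell from 505 and 479 to between 65.2 and 83.7 (-2.72), the largest fall of the 115. In the same list SBDS, which helps release EIF6 from the large subunit, rose from 12.9 and 14.9 to between 68.6 and 74.5 (2.37). Other snoRNP and nucleolar genes had 18 of 26 lower and 3 higher (-0.68), with the exosome subunit EXOSC5 at -2.32. RRP36, a processome protein, was higher (0.78), but not on scaling by library totals (0.05, adjusted p = 0.577), where 2 of the 115 genes and 21.9% of all genes were called higher.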

How the data were processed

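Per the labels' protocols, Trizol RNA went into TruSeq libraries. The authors deposited 1 table of unnormalised gene counts, and the submitters' processing notes name HISAT2 2.0.4, SAMtools 1.3.1, HTSeq 0.6.0, DESeq 1.18.1 and GRCh38; the sources used here give neither strand setting nor annotation release. Positions and overlaps came from GENCODE 29.

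Here the counts of all 6 libraries were scaled by TMM and fitted with edgeR 4.0.16 (R 4.3.3; quasi-likelihood, legacy, robust; 3 groups, no covariate) after filterByExpr with a minimum count of 10. Tests were two-sided, adjusted over 19660 genes; the biological coefficient of variation was 0.0829 on 3 residual degrees of freedom. The script was tested on simulated data with few genes changed, as many up as down. Most tested genes were called here, so that test could not check the scaling between WT and the knockouts. Alternatives were other scalings, DESeq2 1.42.0, other filters, each library left out, the replicate number as a block, and only the groups compared.

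Genes named are the 46, BRPF1, markers and MYC genes, and the 3 largest falls and rises among called other pathway genes with an average log2 CPM of at least 1; MAX, MXD4, LUM, FAP and overlapping genes were added after their values were seen. The 46 genes and all lists were chosen with earlier results of these data known.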

Additional observations from a re-analysis of the deposited data

How the results depend on the processing

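All 32 genes lower in the knockout mean stayed lower under RLE, totals, totals without the 20 most abundant genes, DESeq2, no filter, a filter at 1 CPM and the replicate block, and 30 to 32 did without 1 library. The number called lower was 34 under RLE and DESeq2 (beside 42.7% and 39.5% of all genes), 42 under totals without the 20 most abundant genes (51.6%) and 45 under totals (59.9%). Calls of higher genes moved more. In the knockout mean, 4 became 2 under RLE, DESeq2 and no filter, 1 under totals without the 20 most abundant genes, 0 under totals, and 1 to 4 without 1 library. In KO 1#, 2 became 1 and 0 under those scalings and 1 to 2 without 1 library. In KO 2#, 5 became 3 under RLE and no filter, 2 under DESeq2, 0 under both scalings by totals and 2 to 5 without 1 library. Between KO 2# and KO 1#, 0 became 1 under DESeq2 and with only the groups compared, and 0 to 2 without 1 library. Other pathway genes called higher went from 15 to 2 under totals and 6 without the 20 most abundant genes. The cause of these changes was not tested, beyond the shift of the all-gene median by -0.73 (totals) and -0.40 (without the 20).

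The median of the 46 genes was -0.75 under RLE and DESeq2, -1.44 under totals, -1.10 under totals without the 20 most abundant genes, and -0.74 to -0.64 without 1 library. The median of the 46 minus that of all genes was -0.57, and 0.01 with no filter on low counts; scaling moves both medians together and does not bear on this gap. On scaling by totals and by totals without the 20, signs turned for POLR1A (-0.69 and -0.35), NOP10 (-0.56 and -0.23), GAR1 (-0.53 and -0.19), MPHOSPH10 (-0.53 and -0.19), RRP12 (-0.72 and -0.38), GNL2 (-0.73 and -0.39) and BRPF1 (-0.66 and -0.32), and for RRN3 on the former (-0.32). Genes near 0 also turned under RLE and DESeq2: POLR1A to -0.00471 and -0.00476, RRP12 to -0.0304 under both and GNL2 to -0.0394 under both. With no filter RRP12 was at -0.00189 and GNL2 at -0.0109, and with the 1 CPM filter GNL2 was at -0.00244. Without 1 library the ranges were -0.0126 to 0.101 for POLR1A and -0.0616 to 0.231 for BRPF1 (both lowest without WT replicate 2), -0.0366 to 0.0660 for RRP12 and -0.0236 to 0.0391 for GNL2.

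With the replicate number as a block, 33 of the 46 were lower and 4 higher in the knockout mean, and 2 were higher in KO 2# than in KO 1#, where calls over all genes went from 759 to 1634. Deviations of same-numbered libraries correlated at 0.01 to 0.03, so the numbers were not taken to pair them. NOP2 and EMG1 had few counts, which limits what their fold changes can show. They also share 54.4% and 53.1% of their exon bases with other genes. Whether their low counts come from little transcript or from the counting of shared bases was not tested.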
